A study of Sus scrofa with 67 samples.

Results

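Longissimus dorsi, the long back muscle, was compared between pigs that had been restricted in protein after weaning and then fed extra lysine and pigs that were never restricted. The 24 libraries were chosen by their titles and make up 24 of the 67 in the series, 12 per group. LP-STD20 pigs ate a low protein diet in weeks 1 to 4 after weaning and, in weeks 5 to 8, the standard diet with 20% more digestible lysine and the other essential amino acids above requirement. STD-STD pigs ate the standard diet in both periods. All were Swiss Large White females and castrated males of a single farrowing series with free access to feed, and the low protein diet held 81% of the total and 79% of the digestible crude protein of the standard diet while keeping digestible amino acids at requirement. No label ties a library to a sex, litter, pen or week of sampling. The groups differ in the early diet and in the later amino acid supply, lysine included, at once. The parts of these diets in any difference therefore cannot be told apart in this comparison. LP-STD pigs, restricted and then fed the standard diet, and LP-STD10 pigs, restricted and then given 10% extra lysine, serve below to place the values (12 libraries each).

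Lysine is usually the first limiting essential amino acid in cereal-based pig diets, and skeletal muscle is its main sink. A cell short of an amino acid leaves transfer RNA uncharged, which activates the kinase GCN2 and the transcription factor ATF4; ATF4 then raises genes for amino acid synthesis and uptake. Amino acids and insulin also act through AKT and mTOR to raise translation and to hold back the FOXO-driven ubiquitin ligases that break down muscle protein. When pigs are fed adequately after a period of restriction, faster growth is often seen, which is known as compensatory growth.

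The libraries held 28584177 to 34650980 counted reads in LP-STD20 and 29052141 to 36634720 in STD-STD. Y-linked counts were present in 6 of 12 LP-STD20 libraries and in 6 of 12 STD-STD libraries. Mitochondrially encoded genes took a median of 2.95% of the counts in LP-STD20 and 3.05% in STD-STD. Markers of muscle fibres matched the label: 9 measured of 14 listed summed to between 161445 and 357366 CPM (reads scaled to library size) in LP-STD20 and between 154554 and 276847 CPM in STD-STD. Library numbers run in blocks of 4 per group, and 3 consecutive stretches of 16 numbers each hold 4 libraries of every second-period group, called library sets 1, 2 and 3 below. The labels do not say what such a run of numbers stood for. In every set the groups without added lysine, LP-STD and STD-STD, have lower numbers than LP-STD10 and LP-STD20. Added lysine and the order of library numbers therefore cannot be told apart.

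No gene passed an adjusted p of 0.05 between LP-STD20 and STD-STD: 0 of 13032 genes tested (0%) in edgeR's quasi-likelihood test with Benjamini-Hochberg adjustment. At an unadjusted p under 0.05 there were 1165 genes (8.94%), 534 higher in LP-STD20 (4.1%) and 631 lower (4.84%). Limma voom also called 0 genes, and DESeq2 called 19 of the 7185 genes it gave an adjusted p, of which 4 were higher and 15 lower in LP-STD20. The median log2 difference over all genes was 0.01. Between the 3 runs of 4 libraries within each group, 1205 of 12608 genes (9.56%) had an unadjusted p under 0.05 and 0 passed the adjusted threshold. Within LP-STD20 alone the unadjusted share between runs was 11.7%, and within STD-STD alone it was 5.2%.

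The precision of the comparison was high for most genes. For 9941 genes (76.3%) the 95% interval of the difference lay within 1.5-fold in either direction, and for 11829 (90.8%) it lay within 2-fold. Simulated data had the gene means, spread and library sizes of all 48 libraries of the second feeding period. In LP-STD20, 200 genes were changed at once, up to 4-fold. There the same test recovered 40% of genes changed by 1.25-fold, 68% of those changed by 1.5-fold and 84% of those changed by 2-fold. Libraries were drawn without differences between runs, and the larger changes ease the adjusted threshold for the smaller ones. Recovery where only small changes are present was not tested. Whether pigs of a group shared a pen or a litter is not stated, so the p-values measure the spread between libraries. For the comparison with STD-STD that spread was estimated over all 48 libraries of the second period, LP-STD and LP-STD10 included.

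As no gene passed, the 3 well expressed genes of lowest p in each direction are described, an even split that comes from the rule and not from the order of p-values. AKT2 (chromosome 6, 48555785 to 48620472, Sscrofa11.1), the AKT kinase that carries the insulin signal to glucose uptake in muscle, lay between 112 and 160 CPM in LP-STD20 with a median of 136 CPM, against 149 to 198 CPM with a median of 163 CPM in STD-STD. All 12 LP-STD20 libraries were below the STD-STD median and 9 were below the lowest STD-STD library, so the groups overlapped only at their edges. The log2 difference was -0.32 ± 0.07 (SE, n = 12 per group) with an adjusted p of 0.136 in edgeR and 0.0207 in DESeq2. It lay between -0.36 and -0.27 under the alternatives run.

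ALDH1A1 (chromosome 1, 226163347 to 226217342), which makes retinoic acid from retinaldehyde, ranged over 8.84 to 16.7 CPM in LP-STD20 with a median of 12.1 CPM, and over 13.6 to 27.0 CPM in STD-STD with a median of 16.9 CPM. Again all 12 LP-STD20 libraries were below the STD-STD median, and 9 were below every STD-STD library. Its log2 difference was -0.59 ± 0.13 (adjusted p = 0.136). SH3BP5L (chromosome 2, 52323009 to 52337198), a relative of the RAB11 exchange factor SH3BP5, had medians of 26.0 CPM in LP-STD20 and 30.4 CPM in STD-STD, with 8 LP-STD20 libraries below the lowest STD-STD library.

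On the higher side were the endosomal sorting protein SNX4, the ESCRT-associated protein IST1 and the RNA helicase DHX9. SNX4 (chromosome 13, 134824028 to 134903765) had a median of 16.7 CPM in LP-STD20, from 13.3 to 22.1 CPM, and of 13.3 CPM in STD-STD, from 11.0 to 16.1 CPM. All 12 LP-STD20 libraries were above the STD-STD median and 7 were above the highest STD-STD library, and the log2 difference was 0.36 ± 0.08 (adjusted p = 0.136). IST1 (chromosome 6, 14868859 to 14910679) differed by 0.19 ± 0.04 and DHX9 (chromosome 9, 124141929 to 124183838) by 0.31 ± 0.07 on the log2 scale, with adjusted p-values of 0.136 and 0.141. All 6 genes had the same direction in each library set and under every alternative run, and all 6 were among the 19 DESeq2 calls. They were picked by low p in these same libraries, so these points give no separate support. Nor do the counts of libraries beyond the other group. No share over all genes was computed for such counts, here or for the genes named below.

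The other DESeq2 calls, chosen after their values were seen, included the following. AIFM1, a mitochondrial flavoprotein needed for respiratory chain assembly, differed by -0.29 on the log2 scale, and PPIF, the cyclophilin of the permeability transition pore, by -0.36. PGAM5, a mitochondrial protein phosphatase, differed by -0.21, and TRMU, which modifies mitochondrial transfer RNA, by -0.30. EGLN3, a prolyl hydroxylase that acts on hypoxia-inducible factor, differed by -0.56. GGA3, which sorts cargo at the Golgi, differed by -0.36, MON1A, which acts on endosomes, by -0.30, and PREB, described below, by -0.29. None of these passed the adjusted threshold in edgeR.

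**Figure D1:**
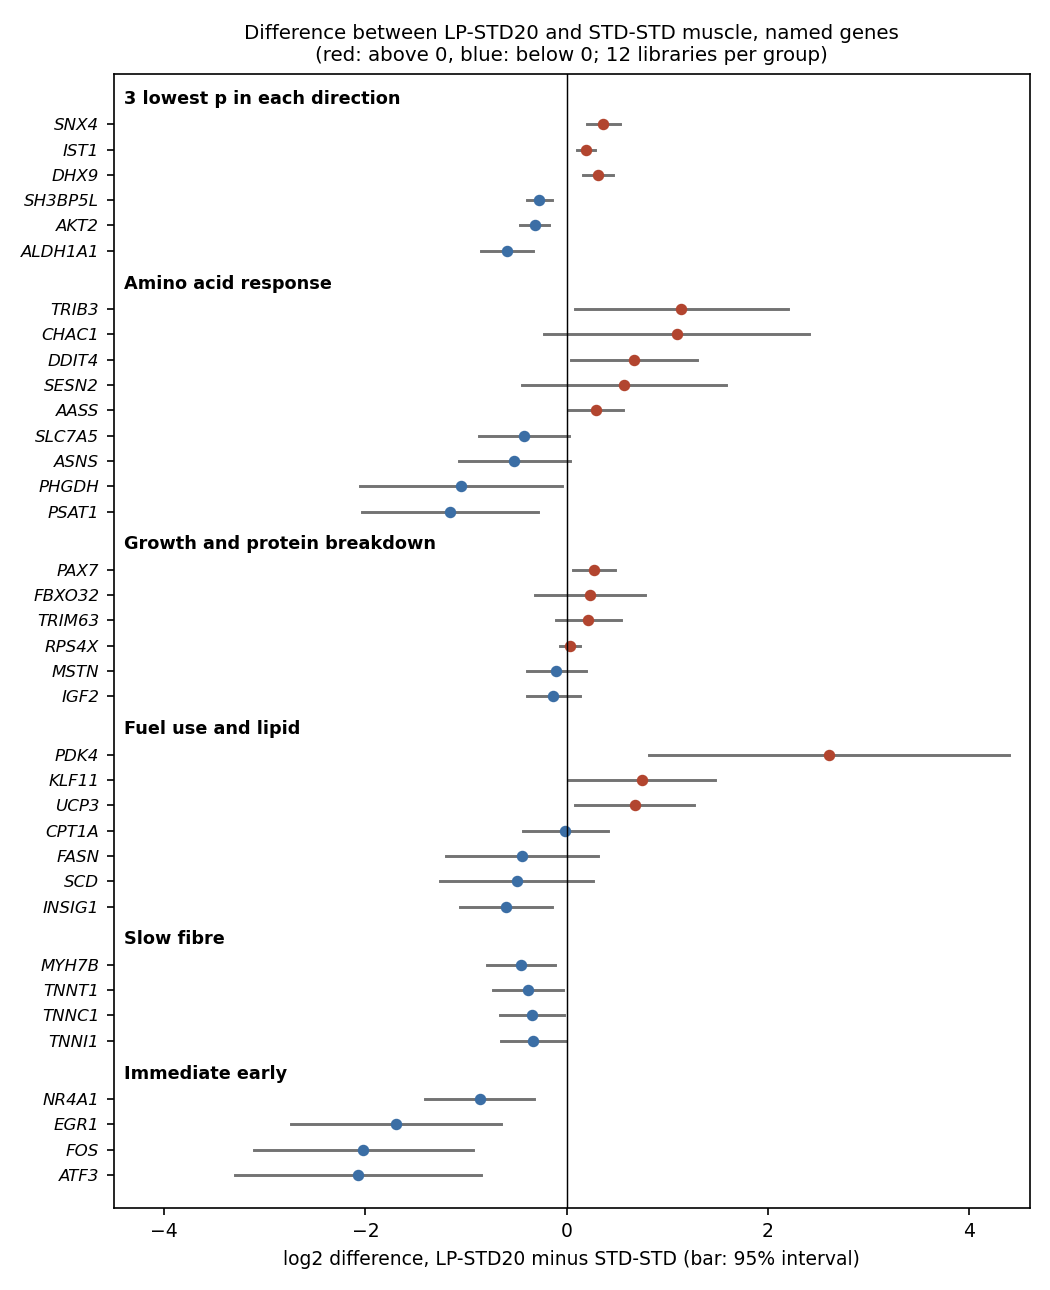
Log2 difference between LP-STD20 and STD-STD for named genes (points) with 95% intervals (bars), 12 libraries per group; values above 0 are higher in LP-STD20. The 3 genes of lowest p in each direction have short bars away from 0, PDK4, CHAC1 and ATF3 have the widest bars, and no gene shown passed the adjusted threshold.

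AKT2, SH3BP5L and PREB had lower averages in LP-STD10 and LP-STD20 than in the groups without added lysine, an order that was noticed after the values were seen and was not tested as such. AKT2 averaged 166 ± 17.5 CPM in LP-STD, 126 ± 20.0 in LP-STD10, 137 ± 14.2 in LP-STD20 and 171 ± 18.6 in STD-STD (SD, n = 12 each). SH3BP5L averaged 31.3 ± 2.89 CPM in LP-STD, 26.1 ± 2.73 in LP-STD10, 25.8 ± 2.98 in LP-STD20 and 31.2 ± 2.75 in STD-STD. PREB, the exchange factor that starts COPII vesicle budding from the endoplasmic reticulum, was chosen after its values were seen and averaged 83.1 ± 11.4 CPM in LP-STD, 65.7 ± 6.38 in LP-STD10, 63.7 ± 6.36 in LP-STD20 and 77.7 ± 11.2 in STD-STD. The comparisons behind these levels share the LP-STD20 libraries. In them added lysine and the order of library numbers cannot be told apart.

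Of 36 measured ATF4 and CHOP targets of the amino acid response, 13 were higher and 23 lower in LP-STD20, with 2 and 5 at an unadjusted p under 0.05 and a median log2 difference of -0.16, against 0.01 over all genes. Asparagine synthetase ASNS had a median of 87.1 CPM in LP-STD20, from 53.1 to 243, and of 124 CPM in STD-STD, from 79.7 to 322. In LP-STD20, 10 of 12 libraries were below the STD-STD median, while replicates 5 and 9 reached 243 and 240 CPM (log2 difference -0.52 ± 0.27, adjusted p = 0.599).

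PSAT1 and PHGDH, which make serine from a glycolytic intermediate, were picked out after their values were seen. PSAT1 lay between 8.81 and 85.1 CPM in LP-STD20 with a median of 23.4 CPM, against 17.5 to 265 CPM with a median of 55.1 CPM in STD-STD. Its log2 difference of -1.16 ± 0.43 (unadjusted p = 0.0116, adjusted p = 0.408) was negative in all 3 library sets. PHGDH had medians of 10.6 CPM in LP-STD20 and 24.5 CPM in STD-STD and a log2 difference of -1.05 ± 0.50 (adjusted p = 0.536), which was 0.30 within library set 2 and -1.86 when LP-STD20 replicate 5, at 122 CPM, was left out. The serine and one-carbon list had 0 higher and 4 lower members at an unadjusted p under 0.05 out of 20, with a median of -0.03. SLC7A5, the large neutral amino acid carrier, had medians of 49.6 CPM in LP-STD20 and 59.9 CPM in STD-STD, with 10 of 12 LP-STD20 libraries below the STD-STD median (log2 difference -0.42 ± 0.22, adjusted p = 0.596, and 0.20 within library set 2). Of 23 amino acid transporter genes 12 were higher and 11 lower, with a median of 0.00.

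For some members with a positive log2 difference, a few LP-STD20 libraries carried it. CHAC1, which degrades glutathione, had medians of 4.42 CPM in LP-STD20 and 5.34 CPM in STD-STD, yet its log2 difference was 1.09 ± 0.65 (adjusted p = 0.675), and 0.16 without LP-STD20 replicate 11, where it stood at 95.4 CPM. SESN2, a leucine-responsive inhibitor of mTORC1, stood at 83.1 CPM in the same library, against a group median of 6.69 CPM in LP-STD20 and of 7.43 CPM in STD-STD; its log2 difference was 0.57 ± 0.50, and -0.24 without that library. TRIB3, a pseudokinase that holds back ATF4, was at 11.4 and 11.5 CPM in LP-STD20 replicates 9 and 11, above the other 10 (0.35 to 2.01 CPM) and all 12 STD-STD libraries (0.22 to 3.06 CPM). Its log2 difference was 1.14 ± 0.53 (adjusted p = 0.516).

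The difference of DDIT4, an mTORC1 inhibitor raised by stress and glucocorticoids, was not carried by a single library but varied between library sets. DDIT4 lay between 17.1 and 108 CPM in LP-STD20 with a median of 70.7 CPM, against 31.0 to 57.0 CPM with a median of 41.0 CPM in STD-STD. In LP-STD20, 8 of 12 libraries were above the highest STD-STD library and 1, replicate 9, was below the lowest. On the log2 scale the difference was 0.67 ± 0.31 (unadjusted p = 0.0363, adjusted p = 0.515). ATF4 itself had medians of 1152 CPM in LP-STD20 and 1169 CPM in STD-STD, and EIF4EBP1, the translation repressor downstream of mTORC1, of 56.3 CPM in LP-STD20 and 56.1 CPM in STD-STD.

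AASS is the mitochondrial enzyme that starts lysine breakdown. It lay between 8.76 and 16.5 CPM in LP-STD20 with a median of 12.1 CPM, against 7.46 to 12.9 CPM with a median of 9.87 CPM in STD-STD. In LP-STD20, 10 of 12 libraries were above the STD-STD median and 4 were above every STD-STD library. Its difference was 0.29 ± 0.13 on the log2 scale (unadjusted p = 0.0373, adjusted p = 0.518) and positive in each library set. It was the 1 member of 13 in the lysine breakdown and carnitine list at an unadjusted p under 0.05, and the list median was -0.05. Branched-chain amino acid breakdown genes had a median of -0.02 over 21 genes, with 0 higher and 3 lower at an unadjusted p under 0.05.

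Genes of protein synthesis showed little spread and little difference. Of 48 measured cytosolic ribosomal protein genes, 47 had a 95% interval within 1.5-fold, and their median log2 difference was 0.00 with 1 higher and 0 lower member at an unadjusted p under 0.05. The small subunit gene RPS4X averaged 357 ± 24.5 CPM in LP-STD20 and 349 ± 23.5 CPM in STD-STD. Intervals within 1.5-fold were also found for 39 of 40 translation factors, 30 of 32 ribosome biogenesis genes, 19 of 20 aminoacyl-tRNA synthetases, 30 of 30 proteasome genes and 30 of 34 insulin and mTOR genes, against 76.3% of all genes. AKT2, described above, was the 1 lower member of the insulin and mTOR list at an unadjusted p under 0.05, and 1 member was higher.

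Growth regulators and ubiquitin ligases gave no call either. IGF2, the main insulin-like growth factor transcript of pig muscle, had medians of 1273 CPM in LP-STD20 and 1369 CPM in STD-STD (log2 difference -0.13 ± 0.13). The growth inhibitor MSTN averaged 22.7 ± 6.81 CPM in LP-STD20 and 24.3 ± 5.79 CPM in STD-STD. FBXO32 and TRIM63, the ligases of muscle wasting, averaged 43.3 ± 27.8 and 106 ± 34.6 CPM in LP-STD20 and 36.9 ± 10.2 and 91.5 ± 18.0 CPM in STD-STD, with adjusted p-values of 0.851 and 0.744. PAX7, which marks satellite cells, the stem cells of muscle, lay between 5.61 and 9.68 CPM in LP-STD20 with a median of 8.33 CPM, and between 5.32 and 9.26 CPM in STD-STD with a median of 6.71 CPM. For PAX7, 11 of 12 LP-STD20 libraries were above the STD-STD median (log2 difference 0.27 ± 0.10, unadjusted p = 0.0123, adjusted p = 0.408), while the satellite cell list of 7 genes had a median of 0.05. The 21 myogenic factors, 28 myostatin and activin genes and 19 growth hormone and IGF genes had medians of 0.09, 0.05 and 0.12, with 2, 1 and 3 higher and 1, 0 and 1 lower members at an unadjusted p under 0.05. The 21 ubiquitin ligase and atrophy genes had a median of 0.08 and the 32 autophagy genes of 0.01.

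PDK4, which shuts the entry of pyruvate into the mitochondrion and rises in fasting, ranged from 2.13 to 222 CPM in LP-STD20 with a median of 8.87 CPM, and from 2.06 to 24.2 CPM in STD-STD with a median of 4.13 CPM. In LP-STD20, 4 libraries lay above all of STD-STD, replicates 4, 7, 9 and 11 at 83.4, 39.5, 222 and 34.3 CPM, and the other 8 lay within its range. Its log2 difference was 2.61 ± 0.89 (unadjusted p = 0.0075, adjusted p = 0.378), and it was 1.66 without LP-STD20 replicate 9 and 1.26 in limma voom, which weights libraries by quality. It was positive in each library set.

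KLF11, a Krüppel-like transcription factor, separated the groups more evenly at a low level. It lay between 1.83 and 4.67 CPM in LP-STD20 with a median of 2.93 CPM, against 1.19 to 2.57 CPM with a median of 1.85 CPM in STD-STD, and 9 of 12 LP-STD20 libraries were above the highest STD-STD library. KLF11 differed by 0.75 ± 0.36 on the log2 scale (adjusted p = 0.538). That SE also draws on LP-STD and LP-STD10, where the SDs of KLF11 were 4.67 and 5.88 CPM. They were 0.91 CPM in LP-STD20 and 0.40 CPM in STD-STD. UCP3, a mitochondrial carrier that rises when muscle burns fat, had medians of 58.6 CPM in LP-STD20 and 35.0 CPM in STD-STD, and 9 of 12 LP-STD20 libraries were above the STD-STD median (log2 difference 0.68 ± 0.29, adjusted p = 0.467). CPT1A, which admits long-chain fatty acids to the mitochondrion, averaged 7.91 ± 2.08 CPM in LP-STD20 and 7.98 ± 2.75 CPM in STD-STD. The whole list of 29 fatty acid use genes had a median of -0.02, and PDK4 and UCP3 were its only members at an unadjusted p under 0.05.

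Lipid synthesis and oxidative genes were mostly on the lower side by small amounts. Of 23 fatty acid synthesis genes 4 were higher and 19 lower in LP-STD20, with a median of -0.13 and 1 member at an unadjusted p under 0.05. FASN and SCD averaged 224 ± 148 and 138 ± 91.7 CPM in LP-STD20 and 305 ± 236 and 196 ± 149 CPM in STD-STD, with adjusted p-values of 0.777 and 0.749. Their log2 differences were -0.44 ± 0.37 and -0.50 ± 0.38, or -0.15 and -0.21 without STD-STD replicate 6, and 0.21 and 0.19 within library set 3. Of 11 tested adipocyte markers 2 were higher and 9 lower in LP-STD20, with a median of -0.15 and 1 lower at an unadjusted p under 0.05. The adipocyte markers summed to a median of 2145 CPM in LP-STD20 and 2068 CPM in STD-STD, a sum that follows the most highly expressed genes. The mean log2 CPM of the 11 tested markers went the other way, with medians of 3.56 in LP-STD20 and 3.91 in STD-STD. That mean was lower in LP-STD20 in library sets 1 and 2 and higher in set 3 (4.03 against 3.83). The part of these markers in the lipid gene values was not tested. INSIG1, which holds sterol regulators in the endoplasmic reticulum and was picked out after its values were seen, had medians of 32.3 CPM in LP-STD20 and 46.9 CPM in STD-STD, with 10 of 12 LP-STD20 libraries below the STD-STD median (log2 difference -0.61 ± 0.23, adjusted p = 0.404). Within library set 3 its difference was -0.05. Cholesterol synthesis genes had a median of -0.05 over 27 genes, with 0 higher and 4 lower at an unadjusted p under 0.05.

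All 8 measured mitochondrially encoded genes were lower in LP-STD20, with a median of -0.16 and 2 at an unadjusted p under 0.05. So were 53 of 60 nuclear respiratory chain genes, with a median of -0.05 and 3 at an unadjusted p under 0.05. Of all 13032 genes 6176 were lower, and 4.84% were lower at an unadjusted p under 0.05. ND4, a complex I subunit chosen after its values were seen, averaged 9718 ± 1463 CPM in LP-STD20 and 11009 ± 1680 CPM in STD-STD (log2 difference -0.18 ± 0.08, adjusted p = 0.513). Of these respiratory chain genes 57 had a 95% interval within 1.5-fold. The mitochondrial ribosome list had 1 higher and 9 lower members at an unadjusted p under 0.05 out of 71, with a median of -0.03. The respiratory chain median was 0.01 without library set 3. Within library set 2 the mean log2 CPM of that list was higher in LP-STD20 (6.44 against 6.37 in STD-STD). For the mitochondrially encoded genes it was nearly equal within set 1 (11.14 in LP-STD20, 11.13 in STD-STD). The 28 tricarboxylic acid cycle genes had a median of -0.02 and the 22 glycolysis genes of 0.05. The pathway lists not described here had medians between -0.05 and 0.07.

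**Figure D2:**
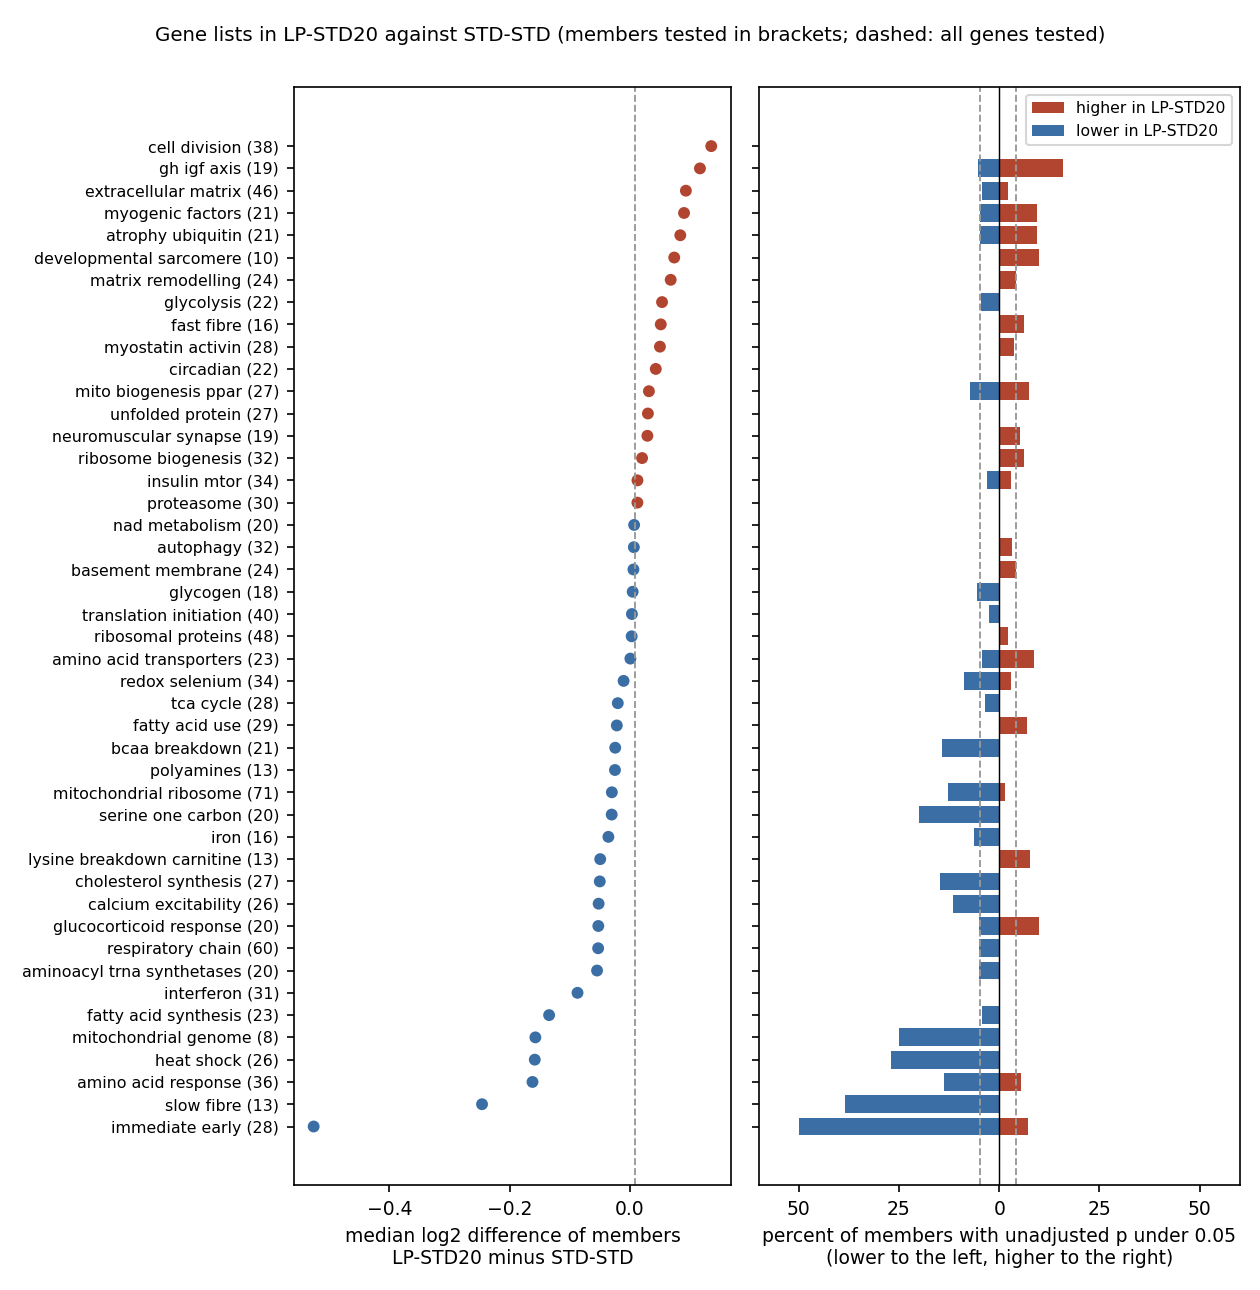
Median log2 difference (left) and percent of members at an unadjusted p under 0.05 (right) of 45 gene lists in LP-STD20 against STD-STD; dashed lines give all 13032 genes, and points are red above the all-gene median and blue below it. Immediate early and slow fibre genes have the lowest medians, -0.53 and -0.25.

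Slow fibre genes were the structural genes that stood furthest from 0. Of 13 measured, 4 were higher and 9 lower in LP-STD20, with a median of -0.25 and 5 lower members at an unadjusted p under 0.05. The members named here were chosen after their values were seen. TNNT1, the slow troponin T, lay between 548 and 1212 CPM in LP-STD20 with a median of 889 CPM, against 524 to 2040 CPM with a median of 1055 CPM in STD-STD. The groups overlapped over most of their range, and 3 STD-STD libraries, replicates 1, 3 and 5, were above all of LP-STD20. The difference was -0.39 ± 0.17 on the log2 scale (unadjusted p = 0.029, adjusted p = 0.482).

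The other slow sarcomere genes differed by like amounts. MYH7B, a slow-type myosin heavy chain gene, had medians of 83.2 CPM in LP-STD20 and 107 CPM in STD-STD, with 11 of 12 LP-STD20 libraries below the STD-STD median (log2 difference -0.45 ± 0.17, adjusted p = 0.404). TNNC1 and TNNI1, slow troponins C and I, differed by -0.35 ± 0.16 and -0.33 ± 0.16. All 4 differences were negative in each library set, from -0.50 to -0.28. Of 16 fast fibre genes 15 were higher in LP-STD20, with a median of 0.05 and 15 intervals within 1.5-fold. TNNT1 averaged 781 ± 175 CPM in LP-STD, 739 ± 176 in LP-STD10, 857 ± 235 in LP-STD20 and 1120 ± 468 in STD-STD, while INSIG1 averaged 29.8 ± 12.4 CPM in LP-STD, 26.4 ± 9.29 in LP-STD10, 32.9 ± 11.3 in LP-STD20 and 50.0 ± 22.4 in STD-STD. In whole muscle, fewer cells or fibres of a type and less RNA per cell cannot be told apart. MYH1, MYH2, MYH4 and MYH7 were not analysed here.

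Immediate early genes, many of which encode transcription factors, are switched on within minutes of a stimulus. Their list had the lowest median of the 45 pathway lists. Of 28 measured, 5 were higher and 23 lower in LP-STD20, with a median of -0.53 and 2 higher and 14 lower members at an unadjusted p under 0.05. FOS, a subunit of AP-1, lay between 19.1 and 174 CPM in LP-STD20 with a median of 83.9 CPM, against 40.0 to 1054 CPM with a median of 144 CPM in STD-STD. STD-STD replicates 3, 4 and 7 stood at 892.5, 990.2 and 1054 CPM, replicates 6 and 8 at 377 and 418 CPM and replicate 1 at 177.5 CPM, above every LP-STD20 library, while the 4 STD-STD libraries of set 3 lay between 40.0 and 97.6 CPM. FOS differed by -2.02 ± 0.54 on the log2 scale (adjusted p = 0.211 in edgeR, 0.0456 in DESeq2).

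EGR1, a growth factor and stretch responsive zinc finger gene, had medians of 27.0 CPM in LP-STD20 and 67.1 CPM in STD-STD (log2 difference -1.70 ± 0.52, adjusted p = 0.303). ATF3 and NR4A1, stress-induced factors of which ATF3 is also in the amino acid response list, chosen after their values were seen, differed by -2.08 ± 0.61 and -0.87 ± 0.27 (adjusted p = 0.283 and 0.296). Within library set 3 the differences were positive, at 0.68 for FOS, 1.09 for EGR1 and 0.74 for ATF3, and NR4A1 stayed at -0.45. The list median was -1.04 without library set 3 and -0.15 without library set 1.

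**Figure D3:**
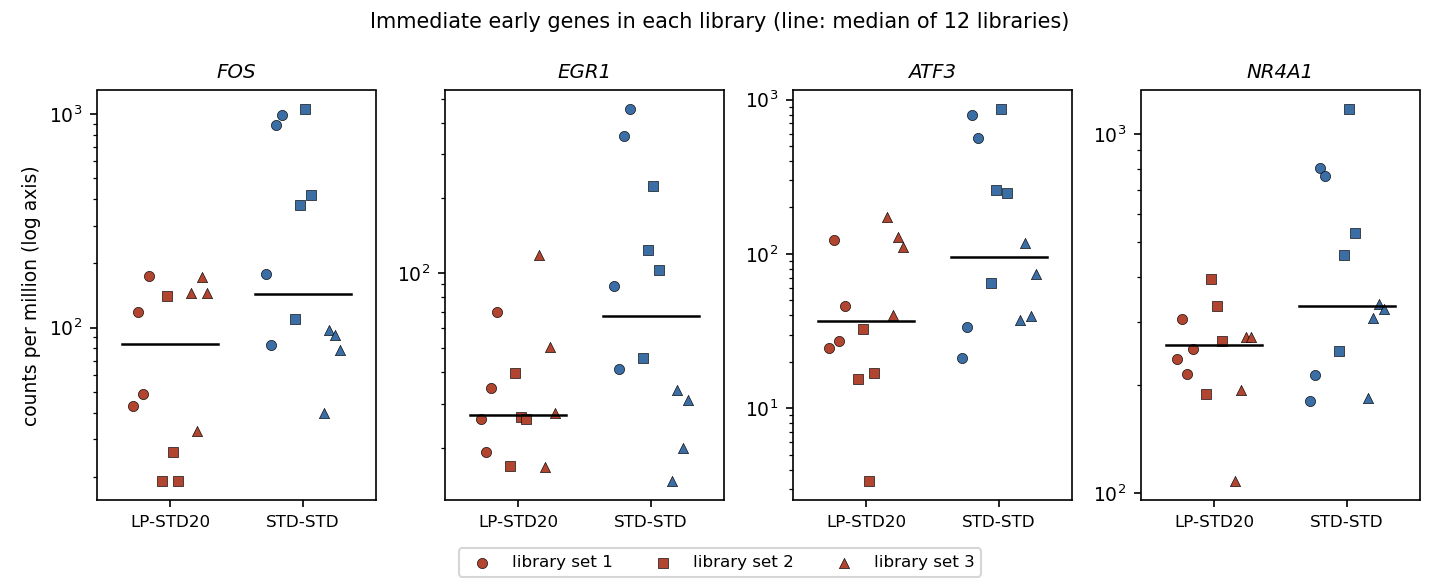
CPM (log axis) of FOS, EGR1, ATF3 and NR4A1 in each of the 12 LP-STD20 and 12 STD-STD libraries, with marker shapes for library sets and lines for medians. The highest STD-STD values lie in sets 1 and 2, where FOS reaches 1054 CPM, and in set 3 the groups overlap.

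Chaperone genes were on the lower side as well. Of 26 heat shock genes 21 were lower in LP-STD20, with a median of -0.16 and 0 higher and 7 lower members at an unadjusted p under 0.05. FKBP4, an HSP90 co-chaperone chosen after its values were seen, lay between 77.9 and 127 CPM in LP-STD20 with a median of 98.2 CPM, against 106 to 130 CPM with a median of 117 CPM in STD-STD. In LP-STD20, 7 of 12 libraries were below the lowest STD-STD library (log2 difference -0.25 ± 0.07, adjusted p = 0.211), and the difference was negative in each library set. The heat shock median was -0.02 without library set 2. All 27 genes of the unfolded protein list had an interval within 1.5-fold.

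NFKBIA, the NF-kappa B inhibitor and itself a target of that factor, was chosen after its values were seen as 1 of the DESeq2 calls. It lay between 11.4 and 50.0 CPM in LP-STD20 with a median of 21.0 CPM, against 10.4 to 20.4 CPM with a median of 13.5 CPM in STD-STD. In LP-STD20, 7 of 12 libraries were above the highest STD-STD library, and the log2 difference was 0.68 ± 0.17 (adjusted p = 0.168). Interferon-stimulated genes had a median of -0.09 over 31 genes, with 0 at an unadjusted p under 0.05.

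Clock genes passed the test within 1 library set and gave no call over all libraries. Whether the difference varied between sets was not tested. Over all libraries 0 of 22 clock and output genes had an unadjusted p under 0.05. The members named here other than DBP were chosen after their values were seen. Within library set 2, where 43 of 13054 genes (0.329%) passed the adjusted threshold, 19 higher and 24 lower in LP-STD20, 5 of these 22 passed. TEF and DBP, activators of the D-box at the output of the clock, were higher there by 1.18 ± 0.08 and 1.48 ± 0.19 (adjusted p = 1.97e-06 and 0.00158). NR1D2, the REV-ERB beta repressor, was higher by 0.94 ± 0.12 (adjusted p = 0.00158). NFIL3, which represses the D-box, differed by -2.45 ± 0.20 and ARNTL, the clock activator BMAL1, by -1.39 ± 0.23 (adjusted p = 1.08e-05 and 0.011).

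The libraries of set 2 did not overlap for TEF, which stood at 71.5 to 83.0 CPM in LP-STD20 replicates 5 to 8 and at 33.3 to 36.4 CPM in STD-STD replicates 5 to 8. The share of all genes without overlap in set 2 was not computed. In the same set TEF stood at 27.5 to 34.1 CPM in LP-STD and at 76.5 to 90.7 CPM in LP-STD10. The groups with low TEF in set 2, STD-STD and LP-STD, are also those with the lower library numbers. In library set 1 the TEF difference was -0.08 and in set 3 it was -0.35, and neither passed. NFIL3 differed by 0.02 in set 1 and 0.94 in set 3. NFKBIA was among the 43 genes of set 2 as well, at 1.03. Within sets 1 and 3, 1 and 0 genes passed (0.00766% and 0%). Each of these fits compares 4 libraries with 4, and each group in a set is a single run of library numbers. Diet and run cannot be told apart within a set, and the p-values there measure the spread between libraries of a run. What else differed between library sets was not tested.

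**Figure D4:**
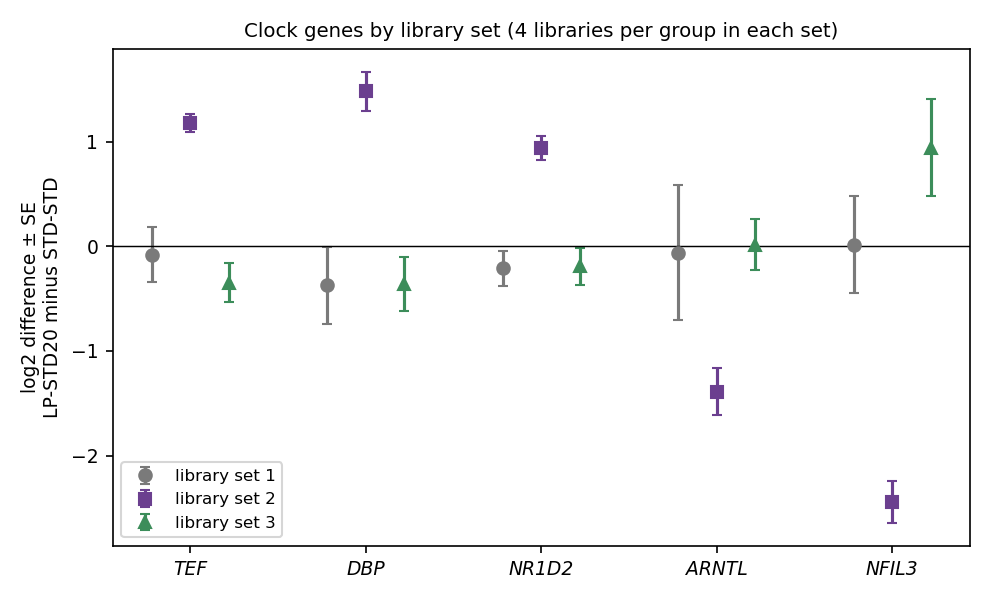
Log2 difference ± SE between LP-STD20 and STD-STD for 5 clock genes within each library set of 4 libraries per group. Set 2 (squares) lies far from 0 for all 5 genes, with TEF, DBP and NR1D2 above it and ARNTL and NFIL3 below, and sets 1 and 3 lie between -0.37 and 0.02 except NFIL3 in set 3 at 0.94.

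Matrix, cell division and macrophage lists had medians above that of all genes, with few or no members at an unadjusted p under 0.05. Of 46 extracellular matrix genes 36 were higher, against 52.6% of all genes tested, with a median of 0.09, and 1 higher and 2 lower at an unadjusted p under 0.05. COL1A1, the main fibrillar collagen chain, lay between 1879 and 2781 CPM in LP-STD20 and between 1004 and 3065 CPM in STD-STD, with all 12 LP-STD20 libraries above the STD-STD median of 1871 CPM (log2 difference 0.15 ± 0.15, adjusted p = 0.833). Of 38 cell division genes 29 were higher, with a median of 0.14 and 0 at an unadjusted p under 0.05.

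The macrophage list had a median of 0.24 over 14 measured genes (0.15 without LP-STD20 replicate 4, 0.39 without STD-STD replicate 6) with 0 at an unadjusted p under 0.05, and its 16 listed markers summed to between 80.5 and 406 CPM in LP-STD20 and between 82.2 and 353 CPM in STD-STD, with LYZ at 0 in all 24 libraries. Fibroadipogenic markers summed to a median of 1359 CPM in LP-STD20 and 1256 CPM in STD-STD. Endothelial markers summed to 454 CPM in LP-STD20 and 476 CPM in STD-STD, and lymphocyte markers to 65.8 CPM in LP-STD20 and 58.0 CPM in STD-STD. Neutrophil markers summed to at most 3.84 CPM, with MPO at 0 in all 24 libraries.

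A few large differences came from 1 or 2 libraries, and these genes were chosen after their values were seen. Liver genes were at or near 0 in nearly all libraries, with ALB at most 2.20 CPM in LP-STD20, but STD-STD replicate 10 held 74.5 CPM of ALB and 19.2 CPM of FGB. The 14 liver markers summed to between 23.7 and 42.7 CPM in LP-STD20 and between 24.9 and 217 CPM in STD-STD, and the list median of -1.84 over 5 tested genes follows that library. UMOD, a gene of the kidney tubule, stood at 51.5 CPM in STD-STD replicate 4, against at most 3.06 CPM in LP-STD20. ZNRD2 was at 22.4 and 17.8 CPM in STD-STD replicates 7 and 12 and at most 0.81 CPM in LP-STD20. In LP-STD10 it stood at 16.73 and 14.95 CPM in replicates 2 and 7. LOXL4, a lysyl oxidase of the matrix, was at 45.4 CPM in LP-STD20 replicate 9 and 13.7 CPM in replicate 4, against at most 4.98 CPM in STD-STD. The part of such tissue or library differences in the results was not tested.

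Setting LP-STD20 against LP-STD compares the later diets, as described above, after the same restriction. Lysine alone is not set apart from the other essential amino acids in it. Here 6 of 13032 genes passed (0.046%), 2 higher and 4 lower in LP-STD20, with 2078 (15.9%) at an unadjusted p under 0.05. All 6 were named after their values were seen. PREB differed by -0.38 ± 0.07 (adjusted p = 0.0118), DDX10, a helicase of ribosome assembly, by -0.47 ± 0.10, and QDPR, which recycles tetrahydrobiopterin, by -0.64 ± 0.14 (adjusted p = 0.0413 for both). LOC102165734, which carries no gene name in the files, averaged 80.5 ± 13.0 CPM in LP-STD20 and 156 ± 47.6 CPM in LP-STD (adjusted p = 0.00212). MOB1B, a Hippo pathway co-activator, was higher by 0.28 ± 0.06 (adjusted p = 0.0413), and SLC17A7, a vesicular glutamate transporter, reached 1.30 CPM in LP-STD20 and was at 0 in 11 of 12 LP-STD libraries (adjusted p = 0.0413).

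The call count moved widely with the libraries included: 0 genes passed without library set 1, 930 without set 2 and 74 without set 3. Against STD-STD, the same 6 genes had adjusted p-values of 0.164 for PREB, 0.426 for DDX10, 0.605 for QDPR, 0.31 for LOC102165734, 0.516 for MOB1B and 0.996 for SLC17A7. Against LP-STD, ASNS differed by -1.05 ± 0.27, PSAT1 by -1.77 ± 0.43 and PHGDH by -1.94 ± 0.50, with adjusted p-values of 0.099, 0.0889 and 0.099. SLC7A5 averaged 50.5 ± 21.3 CPM in LP-STD20 and 101 ± 32.2 CPM in LP-STD (adjusted p = 0.0633). Both comparisons hold the LP-STD20 libraries. ASNS averaged 225 ± 94.3 CPM in LP-STD, 82.8 ± 33.9 in LP-STD10, 108 ± 64.3 in LP-STD20 and 156 ± 78.0 in STD-STD.

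Against LP-STD10 no gene passed: 0 of 13032 (0%) in edgeR, with 727 (5.58%) at an unadjusted p under 0.05, 0 in limma voom and 4 in DESeq2. CPT1A, KLF11 and PDK4 differed by more than 1 log2 unit without passing. CPT1A averaged 7.91 ± 2.08 CPM in LP-STD20 and 15.9 ± 5.90 CPM in LP-STD10 (log2 difference -1.01 ± 0.21, adjusted p = 0.215), and KLF11 averaged 3.16 ± 0.91 CPM in LP-STD20 and 9.56 ± 5.88 CPM in LP-STD10 (log2 difference -1.60 ± 0.35, adjusted p = 0.274). PDK4 averaged 35.5 ± 63.5 CPM in LP-STD20 and 334 ± 281 CPM in LP-STD10 (log2 difference -3.23 ± 0.86, adjusted p = 0.782).

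PDK4 values differed between library sets. PDK4 lay between 250 and 825 CPM in the 8 LP-STD10 libraries of sets 1 and 2 and between 5.25 and 16.4 CPM in the 4 of set 3. In LP-STD it lay between 234 and 730 CPM in set 1 and between 2.94 and 55.2 CPM in the other 8 libraries. Within library set 3 the sign against LP-STD10 turned, to 2.85 for PDK4 and 0.42 for KLF11.

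**Figure D5:**
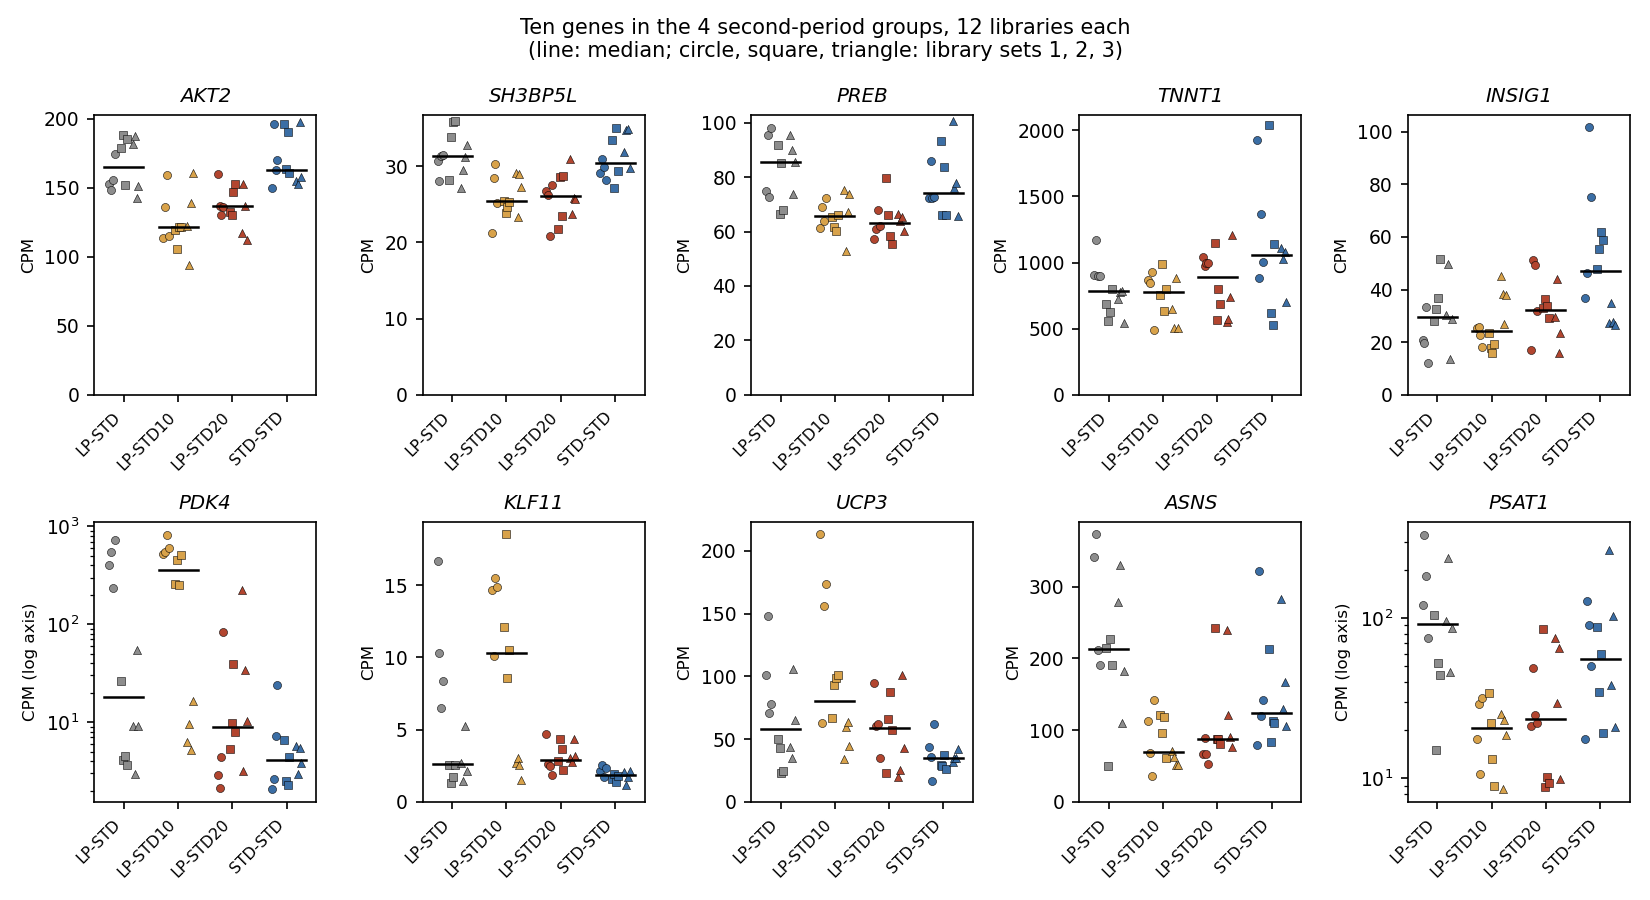
CPM of 10 genes in each library of LP-STD, LP-STD10, LP-STD20 and STD-STD (PDK4 and PSAT1 on log axes), with lines for medians and marker shapes for library sets 1, 2 and 3. AKT2, SH3BP5L and PREB have lower medians in LP-STD10 and LP-STD20 than in LP-STD and STD-STD, and high PDK4 and KLF11 values gather in set 1 of LP-STD and sets 1 and 2 of LP-STD10.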

How the data were processed

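The deposited file is 1 table of raw read counts per gene, made by the authors, with 18158 genes and 67 libraries; per the submitters' processing notes, DESeq2 and the Sscrofa11.1 build were used, aligner and counter not given in the sources used here. Columns were matched to titles through the library number. The 48 libraries of the second feeding period shared 1 edgeR model (version 4.0.16, R 4.3.3) with a mean per group. Genes of low count were dropped by filterByExpr, libraries were scaled by TMM, and p-values of the quasi-likelihood test were adjusted by Benjamini-Hochberg over all 13032 genes. DESeq2 1.42.0 and limma 3.58.1 were alternatives. CPM values are counts scaled to the TMM-adjusted library size, so they do not compare genes of different length. Intervals are 95% and errors of log2 differences are SEs. The fit was tested on simulated counts with 200 changed genes.

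The compared groups, the 57 gene and marker lists and the members named were chosen with earlier results of these data known. Named genes were to be those past the threshold or, if none passed, the 3 of lowest p in each direction that have a gene symbol and average log2 CPM no lower than 1, plus genes from a set list; others are marked as chosen after their values were seen. Coordinates come from RefSeq on Sscrofa11.1, where 93.6% of the table's names were found. Among the 24 libraries of LP-STD20 and STD-STD, the most correlated pair, STD-STD replicates 2 and 11, differed by more than sampling noise. Other libraries were not checked in this way.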

Additional observations from a re-analysis of the deposited data

How the results depend on the processing

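The count of 0 genes against STD-STD was the same without each of the 24 libraries (lowest 0, highest 0; leaving out libraries was chosen after seeing the data) and under the other alternatives except DESeq2 (19), within library set 1 (1) and within set 2 (43). With the replicate number as a block it was 0 against STD-STD, 29 against LP-STD and 1 against LP-STD10; correlations of same-numbered libraries ran from -0.08 to 0.27, so the numbers were not taken as pairs, and 3 of 12 numbers matched best with their own. The 6 genes against LP-STD became 110 in DESeq2, 380 in limma voom, 10 with library set as a block, 3 with the compared groups alone, 0 with runs summed, 1 with correlated runs, 0, 930 and 74 without sets 1, 2 and 3, 328, 130 and 0 within sets 1, 2 and 3, and 64 at a threshold of 0.10. The 0 against LP-STD10 became 4 in DESeq2, 53 without set 3, and 62 and 3 within sets 1 and 2. The 0 between runs became 3 with no filter on low counts, 3 with a CPM filter, 14 in limma voom, 30 with all 48 libraries and 8 at 0.10. The causes were not tested.

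Of 1034 named-gene values under these alternatives 44 turned sign. Within set 3 these were FOS 0.68, EGR1 1.09, ATF3 0.74, CPT1A 0.062, RPS4X -0.0100, FASN 0.21, SCD 0.19, DBP -0.36, TEF -0.35, NR1D2 -0.19, NFIL3 0.94 and ARNTL 0.018, with PDK4 1.82 against LP-STD and 2.85 and KLF11 0.42 against LP-STD10. Within set 1 they were CHAC1 -1.135, SESN2 -0.36, IGF2 0.13, MSTN 0.093, FBXO32 -0.52, TRIM63 -0.27, DBP -0.37, TEF -0.077, NR1D2 -0.21 and NFIL3 0.018. Within set 2 they were CPT1A 0.33, TRIB3 -0.47, SLC7A5 0.20, PHGDH 0.30 and, against LP-STD, PDK4 0.67. Without set 1 they were CPT1A 0.20 and, against LP-STD, PDK4 1.52; without set 2 MSTN 0.053, FBXO32 -0.11, DBP -0.36, TEF -0.21, NR1D2 -0.19 and NFIL3 0.43; without set 3 TRIB3 -0.17. CPT1A was 0.015 in limma voom, 0.0093 with the replicate block and 0.014 with the library set block, and SESN2 -0.021 in limma voom and -0.023 with correlated runs. Leaving out single libraries moved CPT1A from -0.084 to 0.11, SESN2 from -0.24 to 0.86 and FBXO32 from -0.046 to 0.30. A list median counted as moved only if it shifted by more than the pooled SD of the list's mean log2 CPM between libraries. Of 660 list medians 1 did so, the clock list at -0.14 without set 2. This limit is wide, with SDs for immediate early genes of 0.59 in LP-STD20 and 0.96 in STD-STD. The shifts given above for immediate early, heat shock and respiratory chain genes stayed under it, so the count does not show that the medians were stable. Counts of reads limit genes under about 1 CPM, such as SLC17A7.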
